A study of Panicum sumatrense with 28 samples.

Results

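In little millet, the cereal Panicum sumatrense, 44 of 101935 assembled transcripts were high in all 3 libraries of the middle panicle and low in every other library of a tissue atlas. They were chosen by their measured values: the lowest value in the 3 Panicle mid libraries plus 1 was divided by the highest value in the other 25 libraries plus 1, and transcripts with a score of 4 or more were kept. The rule allowed up to 150 transcripts, so its maximum was not reached and the threshold alone set the membership. Because the rule used the contrast of Panicle mid with all other libraries, that contrast is described here and not tested.

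All plants were of genotype JK-8 and were raised in a growth chamber. Panicle mid was sampled 73 days after sowing. It was set against 9 tissues: Germinating seed (day 2), the seedling organs Radicle and Plumule (day 3), Young leaf and Young root (day 13), Crown meristem (day 26), Vegetative stem (day 48), Panicle early (day 61) and Panicle late (day 85). There were 3 libraries per tissue and 2 for Young root and Vegetative stem, 28 in all. Nothing in the labels says that the libraries of a tissue came from separate plants, so p-values measure only the spread between these libraries, which may be technical. Unless stated, the tests pooled this spread over all tissues, Panicle mid included, and not only over the groups compared.

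The panicle is the branched flower head of millets and other grasses. Its spikelets hold florets, in which anthers make pollen and ovaries later become grain. In well studied grasses many transcripts are made only for a short time of this development, for example in dividing pollen mother cells, in the tapetum that feeds the pollen, or in the ripening pollen itself. The sample labels give the middle panicle's age but not its floral stage. The table pairs no identifier with a gene name, so no function is given to any transcript, and the tissues could not be checked against named marker genes. An identifier gives the assembler's read cluster (DN and c numbers together), assembled gene (g) and isoform (i). Below, a cluster means all transcripts with the same DN number, which can span several read clusters.

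Values are TMM-scaled TPM, a share of reads corrected for transcript length and rescaled per library, so levels of different transcripts can be set side by side. They keep no read totals, and the depth of the libraries is unknown; the values of a library summed to between 660796 and 3202138. A transcript at 0 is therefore only listed at 0. Whole tissues were sequenced, and fewer cells of a type and less RNA per cell cannot be told apart.

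The 3 Panicle mid libraries differed in how much early and late panicle RNA they held. Transcripts of each neighbouring stage were listed without use of the Panicle mid libraries, by the same score among the other 25 libraries, and the middle panicle transcripts were left out of the lists. The 456 late transcripts summed to 57530.4 in Panicle mid library 1, 17615 in library 2 and 23428 in library 3, against 385553 to 568856 in Panicle late and 311 to 512 in Panicle early. The 209 early transcripts summed to 468, 1732 and 5559 in Panicle mid libraries 1, 2 and 3, against 11841 to 17271 in Panicle early and 211 to 314 in Panicle late.

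Library 1 thus had the highest sum of the late transcripts and the lowest sums of the early transcripts and of the 44. Library 3 had the highest sum of the early transcripts and the highest sum of the 44. Library 1 had 419 of the late transcripts at 1 or more, library 2 had 177 and library 3 had 342. Of the early transcripts, 51, 69 and 145 were at 1 or more in libraries 1, 2 and 3. Over all kept transcripts, Spearman's rho of library 1 with the Panicle late libraries was 0.828 to 0.849, that of library 2 was 0.798 to 0.818 and that of library 3 was 0.781 to 0.805. With the Panicle early libraries rho was 0.704 to 0.777 for library 1, 0.727 to 0.807 for library 2 and 0.705 to 0.789 for library 3, so by this measure library 2, not library 3, was closest to Panicle early. The part of these differences in the spread of the middle panicle transcripts was not tested.

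**Figure D1:**
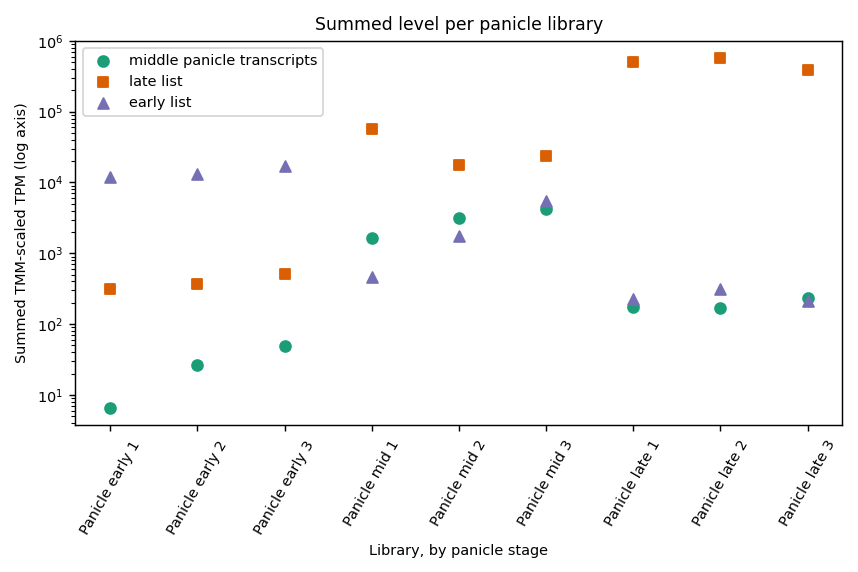
Summed TMM-scaled TPM (log axis) per panicle library for the 44 middle panicle transcripts (circles), the 456 late transcripts (squares) and the 209 early transcripts (triangles). In Panicle mid, library 1 has the highest late sum and the lowest early and middle panicle sums.

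Membership rested on Panicle mid library 1 more than on any other library. Without it 369 transcripts met the rule, the 44 among them, against 44 with all libraries. Since the rule keeps at most the 150 highest scores, 30 of the 44 would then be kept. Without Panicle late library 3 the number was 104. Leaving out any other library gave 44 to 59. Every such count included all 44, as it must, since leaving out a library cannot lower a score.

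The middle panicle transcripts were of moderate abundance. Their Panicle mid means had a median of 58.5, and single values ranged from 3.24 to 358. Together they made up 0.237% to 0.552% of the library totals in Panicle mid. The same rule gave 96 transcripts for Panicle early and 107 for Panicle late, whose sums took 0.679% to 0.853% and 31.4% to 39.3% of the totals of their own libraries. The highest tissue mean was 248 among the middle panicle transcripts, against 64952 among those of Panicle late.

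The most abundant of them was TRINITY_DN9800_c0_g1_i1, with 90.8, 295 and 358 in Panicle mid libraries 1, 2 and 3, against at most 8.69 in any other library. TRINITY_DN10178_c0_g1_i1 followed, with 118, 176 and 310.1 in Panicle mid, against at most 21.96 elsewhere. TRINITY_DN2542_c2_g1_i1 had 135, 206 and 216 in Panicle mid, against at most 32.5 elsewhere. In each of these the highest other library was one of Panicle late.

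Next in abundance was TRINITY_DN8504_c0_g1_i1, with 61.8, 189 and 272 in Panicle mid, against at most 14.1 elsewhere. TRINITY_DN1977_c0_g1_i6 had 111, 147 and 175 in Panicle mid, against at most 26.4 elsewhere. TRINITY_DN42155_c0_g1_i1 had 49.2, 147 and 192 in Panicle mid, against at most 9.77 elsewhere. Library 1 was the lowest Panicle mid library for all 6 transcripts named so far.

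The highest score, 21.9, belonged to TRINITY_DN358_c0_g1_i5. Its values were 145, 151 and 87.3 in Panicle mid libraries 1, 2 and 3, against at most 3.03 elsewhere. Unlike the transcripts above, it was lowest in library 3. The second score, 14.9, was that of TRINITY_DN45303_c0_g1_i1, with 44.3, 58.5 and 55.4 in Panicle mid. It was listed at 0 in 24 of the 25 other libraries, the exception being Panicle late library 1 with 2.05.

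Other high scores followed. TRINITY_DN12610_c0_g1_i1 had 38.1, 40.7 and 109.8 in Panicle mid, against at most 4.65 elsewhere. TRINITY_DN13972_c0_g2_i1 had 30.0, 104 and 179 in Panicle mid, against at most 3.51 elsewhere. TRINITY_DN6454_c0_g1_i1 had 19.1, 40.5 and 75.6 in Panicle mid, against at most 2.29 elsewhere. For these, too, a Panicle late library came closest.

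At the threshold, the last transcripts inside were TRINITY_DN2542_c2_g1_i1 with a score of 4.07 and TRINITY_DN18329_c0_g2_i1 with 4.02. The first ones outside were TRINITY_DN29570_c0_g1_i1 and TRINITY_DN170166_c0_g1_i1, at 3.998 and 3.997. TRINITY_DN170166_c0_g1_i1 was listed at 0 in the 25 other libraries and had a lowest Panicle mid value of 2.997, so its score is that value plus 1.

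**Figure D2:**
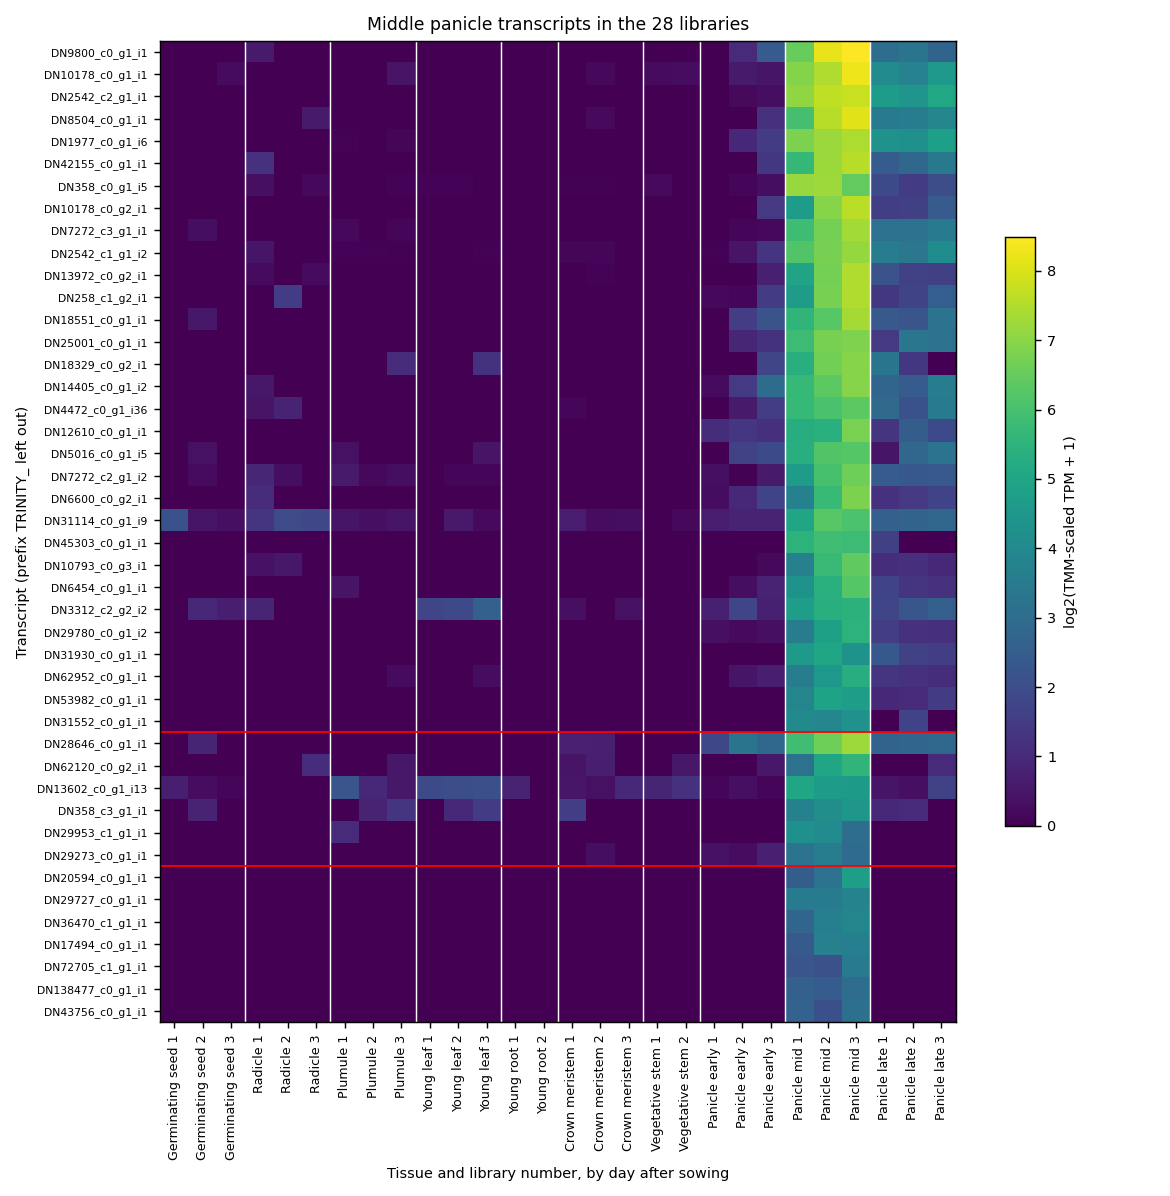
Each row is 1 of the 44 middle panicle transcripts and each column 1 of the 28 libraries, with tissues separated by white lines; colour is log2(TMM-scaled TPM + 1). Red lines separate 31 transcripts whose next tissue was Panicle late (top), 6 with another next tissue, and 7 listed at 0 outside Panicle mid (bottom); within each block the Panicle mid mean falls from top to bottom.

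Outside the middle panicle the transcripts were seen mainly in the late panicle. By tissue means, Panicle late was the next-highest tissue for 31 of the 44. Panicle early and Young leaf were next for 2 each, and Radicle and Plumule for 1 each. The remaining 7 were listed at 0 in all 25 other libraries, as the map of all libraries shows. Over the transcripts above 0 in Panicle late, the Panicle mid mean was a median of 18.2 times the Panicle late mean, and this was over 35 transcripts. Against Panicle early it was 134 times, over 31 transcripts.

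Those listed at 0 elsewhere were among the weakest. The rule favours this, since a transcript weak in Panicle mid passed only if it was at or near 0 elsewhere. TRINITY_DN29727_c0_g1_i1 had 10.01, 10.5 and 12.8 in Panicle mid libraries 1, 2 and 3. TRINITY_DN36470_c1_g1_i1 had 5.81, 11.7 and 13.8. The other members of this group were TRINITY_DN20594_c0_g1_i1, TRINITY_DN17494_c0_g1_i1, TRINITY_DN72705_c1_g1_i1, TRINITY_DN138477_c0_g1_i1 and TRINITY_DN43756_c0_g1_i1. The Panicle mid means of the 7 ran from 5.51 to 12.7, all under the median of the 44.

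Vegetative tissues held almost none of this RNA, and low levels there were required, since the rule capped every library outside Panicle mid. Of the 44 transcripts, 34 were under 1 in all 19 libraries of seed, root, shoot and stem, and 16 were listed at 0 in all of them. In Young root only TRINITY_DN13602_c0_g1_i13 was above 0, with 0.775 in library 1, and none was above 0 in library 2. The highest value in any of these libraries was 5.10, for TRINITY_DN3312_c2_g2_i2 in Young leaf library 3.

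A few transcripts had a steady low level in a vegetative tissue, and these were chosen after their values were seen. TRINITY_DN13602_c0_g1_i13 averaged 26.6 ± 4.19 in Panicle mid and 3.03 ± 0.272 in Young leaf (SD, n = 3 each), above its 0.962 ± 1.09 in Panicle late. TRINITY_DN3312_c2_g2_i2 had 25.4, 39.3 and 42.7 in Panicle mid, against 2.43, 2.63 and 5.10 in Young leaf and 2.45, 3.86 and 4.998 in Panicle late. TRINITY_DN31114_c0_g1_i9 averaged 58.4 ± 24.4 in Panicle mid and 2.30 ± 0.765 in Radicle (SD, n = 3 each). The other 7 transcripts that reached 1 outside the panicle did so in 1 to 3 libraries, none above 1.94.

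The 3 Panicle mid libraries did not hold the 44 transcripts at equal levels. Library 1 was lowest for 35 of the 44 and library 3 highest for 35, and 31 had both. The matching shares over all transcripts were not counted. The summed level was 1658, 3158 and 4268 in libraries 1, 2 and 3. Over the 44 transcripts, the value plus 1 in library 3 was a median of 2.36 times that in library 1. The median over the 77548 transcripts kept for testing was 1, but it is not a background for the 44. The filter asked for 2 or more libraries at 1 or above in any tissue, so kept transcripts need not be seen in Panicle mid. The 44 were all at 3.24 or more in every Panicle mid library. Transcripts of like level there were not compared. The ratio of the highest to the lowest library, with 1 added to both, was 2 or more for 29 of the 44 and 4 or more for 8.

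The widest spread was that of TRINITY_DN6600_c0_g2_i1, with 12.4, 51.7 and 112 in Panicle mid libraries 1, 2 and 3, a ratio of 8.43. It was followed by TRINITY_DN10178_c0_g2_i1, with 24.7, 124 and 194, a ratio of 7.61. The narrowest were TRINITY_DN29727_c0_g1_i1 and TRINITY_DN13602_c0_g1_i13, with ratios of 1.25 and 1.30. Library 3 was lowest for 5 transcripts, among them TRINITY_DN358_c0_g1_i5, and library 2 for 4.

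**Figure D3:**
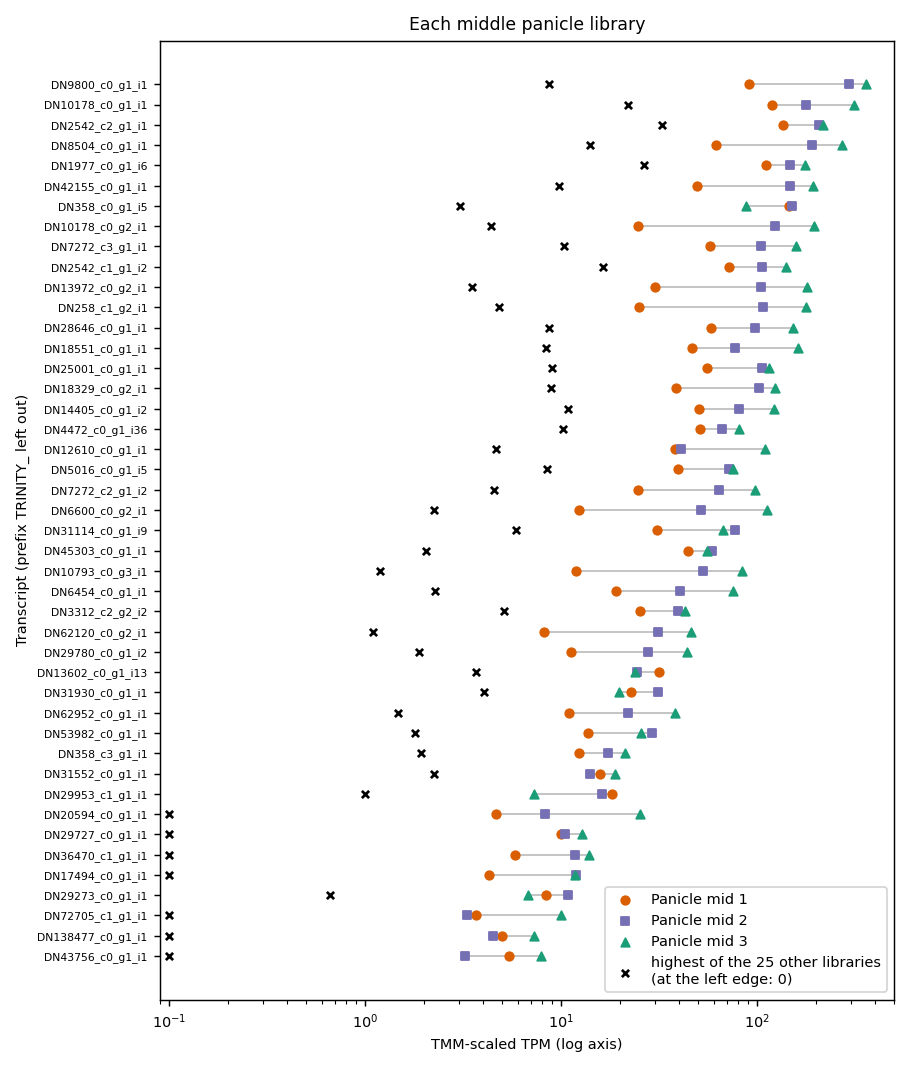
For each of the 44 transcripts (rows, ordered by Panicle mid mean) the value in each of the 3 Panicle mid libraries is shown on a log axis of TMM-scaled TPM, with the range as a grey line; crosses mark the highest of the 25 other libraries, drawn at the left edge where that is 0. Library 1 lies lowest for 35 transcripts and library 3 highest for 35.

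Whether the low levels before and after the middle stage differed was tested between Panicle late and Panicle early, since the rule set neither group against the other; it only capped both. The test was limma's moderated test on log2(value + 1) across 77548 transcripts, with Benjamini-Hochberg adjustment, and a transcript was called at an adjusted p below 0.05 and a log2 difference of 1 or more in size. Of the 44 transcripts, 21 were higher in Panicle late, which is 47.7%, where 6.44% of all tested transcripts were. The count over 44 holds 11 transcripts that passed the filter on low values only through Panicle mid. Without the Panicle mid libraries 33 of the 44 passed the filter, and 22 of these, or 66.7%, were called higher, where 6.67% of all transcripts then tested were. These 33 passed through the same libraries that are compared, so neither share is taken as support. None was lower at this threshold in the fit of all libraries, where 8.64% of all tested transcripts were, and 1 of the 44 was lower at an unadjusted p under 0.05. At most 17 of the 44 could fall by 1, since no other reached 1 in any Panicle early library. The median log2 difference of the 44 was 1.01, and that of all tested transcripts was 0.00.

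The largest difference was that of TRINITY_DN2542_c2_g1_i1. It had 24.9, 20.7 and 32.5 in Panicle late, against 0, 0.154 and 0.245 in Panicle early. The log2 difference was 4.56, with an SE of 0.20 and a limma adjusted p of 1.1e-12. Every late library lay above every early one. The libraries overlapped for TRINITY_DN14405_c0_g1_i2, which was also called, with 5.87, 4.55 and 10.9 in Panicle late, against 0.179, 1.73 and 7.02 in Panicle early.

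Large differences were also found for other abundant members. TRINITY_DN10178_c0_g1_i1 had 16.01, 12.7 and 21.96 in Panicle late, against 0, 0.515 and 0.411 in Panicle early (log2 difference 3.76, SE 0.27, limma adjusted p = 1.5e-09). TRINITY_DN1977_c0_g1_i6 had 19.1, 18.1 and 26.4 in Panicle late, against 0, 0.918 and 1.76 in Panicle early (3.65, SE 0.26, limma adjusted p = 1.5e-09). TRINITY_DN8504_c0_g1_i1 had 10.5, 10.7 and 14.1 in Panicle late, against 0, 0 and 1.33 in Panicle early (3.26, SE 0.38, limma adjusted p = 1.1e-06). In all of these Panicle early library 1 was listed at 0.

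Smaller differences were called in fewer settings. TRINITY_DN9800_c0_g1_i1, the most abundant member, had 7.30, 8.69 and 5.69 in Panicle late, against 0, 1.07 and 4.47 in Panicle early (log2 difference 1.86, SE 0.45, limma adjusted p = 0.0042; range over 37 alternatives 0.00012 to 0.0504). Its call held in 35 of these and ended in a fit of only the groups compared and with a pseudocount of 5, where the log2 difference was 0.88. TRINITY_DN10178_c0_g2_i1 had 1.97, 2.06 and 4.37 in Panicle late, against 0, 0 and 1.66 in Panicle early (1.40, SE 0.48, limma adjusted p = 0.044; range 0.0012 to 0.50). The call of TRINITY_DN10178_c0_g2_i1 held in 16 of 37 alternatives and ended without any single library of Panicle late, and without Panicle early library 1 or 2.

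Other members were not called. TRINITY_DN28646_c0_g1_i1 had 5.44, 5.76 and 6.15 in Panicle late, against 2.61, 8.70 and 6.19 in Panicle early (log2 difference 0.10, SE 0.34, limma adjusted p = 1.0). TRINITY_DN29273_c0_g1_i1, chosen after its values were seen, was listed at 0 in the 3 Panicle late libraries and had 0.324, 0.210 and 0.662 in Panicle early. It was the transcript that was lower at an unadjusted p. In Panicle mid it had 8.35, 10.8 and 6.77. Panicle late and Panicle early were both at 0 for 8 of the 44.

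**Figure D4:**
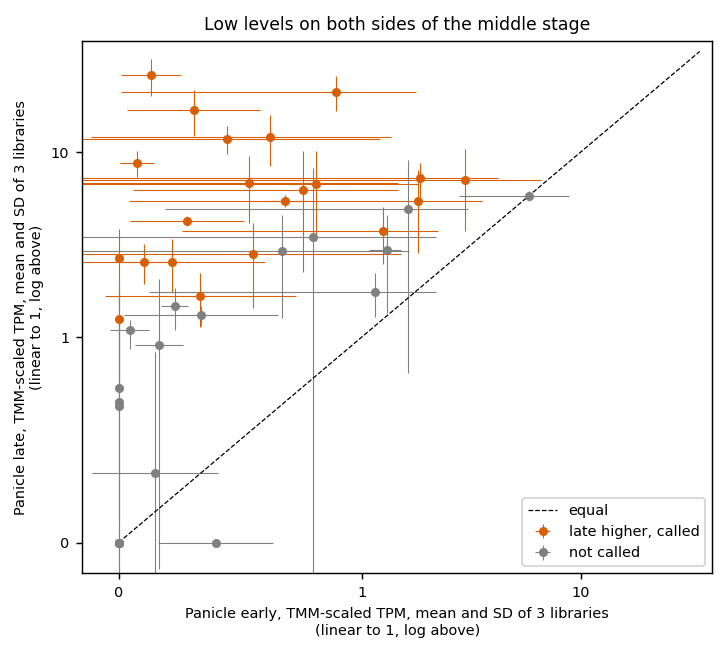
Mean and SD (n = 3) of each of the 44 transcripts in Panicle late (vertical axis) and Panicle early (horizontal axis), in TMM-scaled TPM on axes that are linear to 1 and logarithmic above, with bars cut at the frame. The 21 called transcripts (orange) lie above the dashed line of equal levels, at Panicle late means of 1.26 to 26.0.

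The balance of all transcripts in this comparison depended on the scaling. With libraries rescaled to a common sum, the median of all log2 differences moved to -0.36, and 80.5% of all calls were lower in Panicle late, against 57.3% as deposited. Under that scaling 16 of the 44 were called, all higher in Panicle late and all among the 21, with a median of 0.79. Of all 77548 tested transcripts, 3343 were then called higher.

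The early panicle libraries were themselves unequal. The summed level of the 44 was 6.58, 26.2 and 49.3 in Panicle early libraries 1, 2 and 3, and 2, 7 and 16 transcripts reached 1 there. The sum of the late transcripts, which the listing caps in these libraries, ran in the same order, at 311, 366 and 512; its part in the result was not tested. In Panicle late the sums of the 44 were closer together, at 174, 168 and 235.

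Both panicle stages were also compared with Vegetative stem, the tissue sampled last before the first panicle stage. In Panicle late, 27 of the 44 transcripts were higher than in Vegetative stem by the same test, which is 61.4%, where 8.36% of all tested transcripts were. This count, too, holds the 11 transcripts that passed the filter only through Panicle mid. Without the Panicle mid libraries 29 of the 33 that passed the filter were called higher, or 87.9%, where 8.80% of all transcripts then tested were. Of the 44, 26 were at 1 or more in every Panicle late library, which alone passes the filter, so neither share is taken as support. None was lower at the threshold or at an unadjusted p under 0.05, where 7.32% of all tested transcripts passed the threshold. Only 1 of the 44 reached 1 in Vegetative stem, in library 2, so no other could fall by 1. The absence of falls is therefore not taken as a result. The median log2 difference of the 44 was 1.76 and that of all transcripts 0.00. With a common sum 71.1% of all calls were lower in Panicle late, against 46.7% as deposited. The same 27 of the 44 were then called higher, where 4933 of all 77548 tested transcripts were.

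The largest of these was again TRINITY_DN2542_c2_g1_i1, with 24.9, 20.7 and 32.5 in Panicle late and listed at 0 in both Vegetative stem libraries (limma adjusted p = 4.5e-12). Of the 44, 3 transcripts had a value above 0 in Vegetative stem library 1 and 4 in library 2. Sums of the 44 were 174, 168 and 235 in Panicle late, against 1.19 and 2.12 in Vegetative stem.

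Against Vegetative stem, 29 of the 44 had a Panicle early log2 difference above 0, 2 below 0 and 13 at 0. The median was 0.32, but few were called. Only 3 and 4 of the 44 were above 0 in Vegetative stem libraries 1 and 2. A transcript at 0 there cannot differ downward, so these signs are not taken as support. Of the 44, 3 were higher in Panicle early than in Vegetative stem, which is 6.82%, where 7.16% of all tested transcripts were, a share near the background. This reading depended on the setting: 9 were called with a pseudocount of 0.1, or 20.5%, where 7.31% of all transcripts were, and 8 without Panicle early library 1, or 18.2%, where 7.85% were. Without the Panicle mid libraries 3 of the 33 that passed the filter were called, or 9.09%, where 7.59% were. The counts over 44 here also hold the 11 that passed the filter only through Panicle mid. With a pseudocount of 5, 1 of the 44 was called, or 2.27%, where 3.33% of all transcripts were. In the fit of all libraries none was lower at the threshold or at an unadjusted p under 0.05, where 4.20% of all tested transcripts passed the threshold. The members' low Vegetative stem levels left almost no room for a fall, so this is not taken as a result. With quantile normalization 49.4% of all calls were lower in Panicle early, against 37.0% as deposited, and 1 of the 44 was called, or 2.27%, where 5.67% of all transcripts were called higher. The 3 comparisons share libraries with each other.

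TRINITY_DN28646_c0_g1_i1 had the largest of these differences, with 2.61, 8.70 and 6.19 in Panicle early and listed at 0 in both Vegetative stem libraries (limma adjusted p = 3.2e-05). It averaged 102 ± 47.2 in Panicle mid (SD, n = 3). The others were TRINITY_DN14405_c0_g1_i2 (limma adjusted p = 0.037, up to 0.22 over 37 alternatives) and TRINITY_DN12610_c0_g1_i1 (limma adjusted p = 0.021, up to 0.54). Their calls ended without either library of Vegetative stem, and also without Panicle early library 2, that of TRINITY_DN14405_c0_g1_i2 also without library 3. Both calls ended with a pseudocount of 5 and with quantile normalization, and that of TRINITY_DN14405_c0_g1_i2 also in a fit of only the groups compared.

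Across the 9 tissues other than Panicle mid, 28 of the 44 passed the moderated F test of limma at an adjusted p below 0.05, which is 63.6%, where 58.6% of all tested transcripts did. The 11 transcripts that passed the filter only through Panicle mid are again in the count. Without the Panicle mid libraries 30 of the 33 that passed were called, or 90.9%, where 59.1% of all transcripts then tested were. These 33 passed by reaching the filter's level in the same libraries that are compared, so neither share is taken as support.

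What the transcripts shared beyond the rule was sought in the assembly. The 44 came from 40 clusters by DN number, and 4 clusters held 2 members each. In cluster DN10178, TRINITY_DN10178_c0_g1_i1 and TRINITY_DN10178_c0_g2_i1 both had library 1 lowest and library 3 highest. In cluster DN2542, TRINITY_DN2542_c1_g1_i2 had 71.7, 106 and 141 in Panicle mid libraries 1, 2 and 3, beside 135, 206 and 216 for TRINITY_DN2542_c2_g1_i1.

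The other pairs were also unequal in level. In cluster DN7272, TRINITY_DN7272_c3_g1_i1 had 57.1, 104 and 158 in Panicle mid, and TRINITY_DN7272_c2_g1_i2 had 24.6, 64.1 and 97.0. In cluster DN358, TRINITY_DN358_c3_g1_i1 had 12.4, 17.4 and 21.3, with library 3 highest, while TRINITY_DN358_c0_g1_i5 was lowest there. Transcripts of a cluster can be copies from another subgenome or parts of a gene, and near-identical copies share reads, so the division of a level within a cluster is uncertain.

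The late and early levels of these pairs were also set side by side. TRINITY_DN2542_c1_g1_i2 had 10.7, 9.31 and 16.4 in Panicle late, against 0.0520, 0.367 and 1.46 in Panicle early (log2 difference 3.07, SE 0.28, limma adjusted p = 3.8e-08). TRINITY_DN7272_c3_g1_i1 had 7.94, 7.96 and 10.4 in Panicle late, against 0, 0.0860 and 0.138 in Panicle early (3.18, SE 0.25, limma adjusted p = 5.7e-09). Its partner TRINITY_DN7272_c2_g1_i2 had 4.54, 4.02 and 4.20 in Panicle late, against 0.284, 0.0450 and 0.514 in Panicle early (2.05, SE 0.33, limma adjusted p = 7.7e-05). Both members of each of these clusters were higher in Panicle late, as were both of DN10178, but of DN358 only TRINITY_DN358_c0_g1_i5 was called, with 2.79, 1.85 and 3.03 in Panicle late, against 0, 0.0730 and 0.235 in Panicle early.

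Of the 44, 19 had no other transcript with their DN number, which is 43.2%, against 74.5% of all rows of the table. The clusters of the others held 46 further transcripts. Of these, 14 had their highest tissue mean in Panicle mid, which is 30.4%, against 7.67% of all rows. Of the 46, 12 shared the c number with a member as well, and 5 of these were highest in Panicle mid. The other 34 shared only the DN number, and 9 of them were highest there. No test was made of these shares.

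Several of these further transcripts, chosen after their values were seen, lay within the range of the members' Panicle mid means. TRINITY_DN258_c1_g1_i3 averaged 195 in Panicle mid, against 22.01 in Panicle late. TRINITY_DN31930_c2_g1_i1 averaged 192 in Panicle mid, against 36.2 in Panicle late. They missed the rule with scores of 2.70 and 2.31. TRINITY_DN1977_c0_g2_i2 came closest to it among the 14, with a score of 2.99, and averaged 89.8 in Panicle mid, against 9.17 in Panicle late. TRINITY_DN6600_c1_g1_i1 averaged 110.0 in Panicle mid, against 12.3 in Panicle early and 2.60 in Panicle late.

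Of the clusters with 2 members, DN2542 and DN7272 also held transcripts that were not members. TRINITY_DN2542_c0_g1_i5 was highest in Radicle, at 75.9, and averaged 32.6 in Panicle mid. TRINITY_DN7272_c0_g1_i3 was highest in Plumule, at 23.6, and TRINITY_DN7272_c4_g1_i1 in Radicle, at 19.6. TRINITY_DN7272_c1_g1_i3 was highest in Panicle early, at 16.4, and TRINITY_DN2542_c4_g1_i1 in Panicle mid, at 2.04. Transcripts with 1 DN number thus had their highest mean in different tissues, but none of these non-members shared a member's c number.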

How the data were processed

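RNA of 10 tissues was sequenced as 28 libraries. Per the series' design text and the submitters' processing notes, the authors used CASAVA and Trimmomatic, assembled the reads with Trinity and estimated TPM with kallisto, and no versions are given in the sources used here. Expression in the deposited table is a signal that the authors scaled by TMM, per the table's name, for 101935 transcripts. Columns were matched to samples by the code in each title. All panicle and Vegetative stem codes belong to 1 series of library codes. The labels name more than 1 RNA extraction method without assigning libraries to them.

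The filter asked for 2 or more libraries at 1 or above, which kept 77548 transcripts and all 44 members. On log2(value + 1), limma 3.58.1 (R 4.3.3) estimated a mean for each tissue from the 28 libraries, without covariates and with the variance trended on abundance (18 residual degrees of freedom); the code was tested on simulated data. All members passed the filter through Panicle mid; 33 pass on the other 25 libraries. Differences on this scale understate changes of low transcripts. Tables were made in Python 3.11.15 with pandas 2.3.3.

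The members and lists were chosen with earlier results of these data known. Transcripts named were the 8 highest by score and by Panicle mid mean, those nearest the threshold, the largest called changes, the widest and narrowest spreads, and those sharing a DN number, where 4 clusters tied. Alternatives were other pseudocounts, filters, scalings, fits of fewer groups, a replicate block and leaving out each library. No sequence of these transcripts was used here.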

Additional observations from a re-analysis of the deposited data

How the results depend on the processing

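The number of transcripts meeting the rule moved most. It was 166 with a constant of 0.1 in the score, 9 with 5 and 127 with a common sum. It was 434 with the mean of the Panicle mid libraries in place of the lowest, and 44 to 369 when each library was left out. Of the 44, 9 met the score with the constant of 5, and all 44 met it in every other case. A lower constant, the mean or a library left out cannot lower a member's score, so of these cases only the common sum could have lost members. With the maximum of 150 applied, 42 of the 44 were kept with a constant of 0.1, and 30 with the mean or without Panicle mid library 1. A pseudocount of 5 shrinks differences of low transcripts. With it 7 of the 44 were called for Panicle late against Panicle early (21 above), or 15.9%, where 3.40% of all transcripts were higher. For Panicle late against Vegetative stem 14 were called (27 above), or 31.8%, where 4.48% were. For Panicle early against Vegetative stem 1 was called (3 above), or 2.27%, where 3.33% were. The last count was also 9 with a pseudocount of 0.1 and 1 under quantile normalization, with the shares given above. It was 5 with a common sum, where 6895 of all 77548 tested transcripts were called higher. The cause was not tested. With a pseudocount of 0.1, 1 of the calls in Panicle late against Panicle early was lower, where 6796 of all 77548 tested transcripts were. Each library was also left out in turn, and fits that left 1 library in a tissue are not counted here. For Panicle late against Panicle early 17 to 22 members were called, where 4340 to 5066 of all transcripts were higher. Against Vegetative stem it was 24 to 29 for Panicle late, where 5887 to 6620 were higher. For Panicle early it was 1 to 8, where 4354 to 5768 were higher. The 8 came without Panicle early library 1, and the 1 without Panicle early library 2. Among the 9 tissues 22 to 30 members differed, where 43709 to 46400 of all transcripts did.

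Replicate numbers did not pair the libraries: the mean correlation between deviations of same-numbered libraries was 0.00214, 3 of 118 pairs passed 0.1, and the late and early pairs lay between 0.0112 and 0.0239, although each late library correlated best with its own number. With a replicate block the counts were 21, 27 and 2 (TRINITY_DN14405_c0_g1_i2 was no longer called), and 28 for the differences among 9 tissues. Of all 77548 tested transcripts, 4924, 6330 and 5276 were then called higher, and 44950 differed among the 9 tissues. Read depth is unknown, so values near 0 have no counting limit.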

Other observations

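The transcripts added when Panicle mid library 1 is left out of the rule were described after that count was seen, with no test. They numbered 325. Since only library 1 kept them out of the rule, all were lowest there, and their low values in library 1 follow from this choice. Their median value was 5.68, 22.2 and 36.4 in Panicle mid libraries 1, 2 and 3, and 44 were under 1 in library 1. Panicle late was the next tissue for 205 of them, Panicle early for 61, and 34 were listed at 0 outside Panicle mid. Panicle early was next for 2 of the 44 that met the rule with all libraries.

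The strongest by score was TRINITY_DN6624_c0_g1_i4, with 59.1, 891 and 971 in Panicle mid libraries 1, 2 and 3, against at most 15.4 in the 25 other libraries. TRINITY_DN13118_c0_g1_i2 had 24.9, 315 and 459 in Panicle mid, against at most 6.13 elsewhere. TRINITY_DN9095_c0_g1_i1 had 5.71, 71.2 and 83.9 in Panicle mid, against at most 1.08 elsewhere. In libraries 2 and 3 the first of these exceeded every one of the 44 members.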
